A study of Mus musculus with 2 samples.

Results

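Mir193b, Mir365-1, Mir365-2 and Mir455 are microRNA genes with a described role in the choice between brown fat and muscle. They were selected by name, as the rows of both count tables whose Ensembl identifiers belong to these symbols in GENCODE M21, and are 4 of 2202 microRNA genes counted. Both libraries came from the gastrocnemius, the large calf muscle, of female B6CASTF1/J mice aged 25 days, hybrids of the strains C57BL/6J and CAST/EiJ, with no treatment named. They are biological replicates 1 and 2 of 1 group. Each female has a number of its own in the labels, yet the donor identifier is the same, so an SD here is the spread between 2 libraries, which may be technical. No fat depot, second tissue or treatment was included, so what can be read is the level of each gene in this muscle and how far the libraries differ.

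A microRNA is cut from a hairpin precursor, and either arm of the hairpin (5p or 3p) can be loaded into Argonaute, where bases 2 to 8, the seed, pair with target messenger RNAs. Brown adipocytes and skeletal muscle arise from related precursors, and the regulator PRDM16 steers such precursors to brown fat. Mir193b and Mir365-1 form a cluster that has been described as induced by PRDM16, as needed for brown adipocyte differentiation in culture, and as able to divert cultured myoblasts to an adipocyte fate through the repressor Runx1t1. A later mouse deletion of that cluster left brown fat formed and working. Mir455 has been described as a cold- and BMP7-induced driver of brown fat, with Runx1t1, Necdin and HIF1an as targets, and it also belongs to the cartilage microRNAs.

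The mature sequences are shown because they decide which reads can be assigned to 1 gene. They are taken from the RefSeq table for GRCm38.p6, written 5′ to 3′ with the seed in capitals, and Mir193a, the paralog of Mir193b, is added for its shared seed.
miR-193b-5p: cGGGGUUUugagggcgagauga
miR-193b-3p: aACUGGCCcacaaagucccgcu
miR-193a-3p: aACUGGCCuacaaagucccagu
miR-365-1-5p: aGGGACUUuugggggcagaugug
miR-365-2-5p: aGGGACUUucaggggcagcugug
miR-365-3p, encoded by both Mir365-1 and Mir365-2: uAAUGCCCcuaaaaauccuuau
miR-455-5p: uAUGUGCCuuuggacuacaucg
miR-455-3p: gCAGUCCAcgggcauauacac

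The seeds fall into 2 shared groups. miR-193b-3p and miR-193a-3p have the same seed and 19 of 22 bases in common. With positions counted from 1 at the 5′ end of miR-193b-3p, they differ by C9U, G20A and C21G. miR-365-1-5p and miR-365-2-5p share their seed and 20 of 23 bases, and differ by U10C, G11A and A19C from the 5′ end of miR-365-1-5p. miR-365-3p is 1 sequence made at 2 loci. Among the arms matched to counted genes, the seed of miR-455-5p recurs only in miR-5129-3p, whose gene Mir5129 had 0.636 and 0.737 counts per 1000000 (CPM) in replicates 1 and 2. No other matched arm has the seed of miR-455-3p.

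The genes lie at 3 places in the mm10 assembly. Mir193b (ENSMUSG00000076972.2) spans chromosome 16 from 13449523 to 13449601 on the forward strand, and Mir365-1 (ENSMUSG00000065449.1) follows it from 13453840 to 13453926, with 4238 bases between the hairpins. Both lie opposite an intron of the antisense RNA gene Gm15738 and within no gene on their own strand. Mir365-2 (ENSMUSG00000065489.1) is on chromosome 11 from 79726400 to 79726511, overlaps no other annotated gene, and follows Mir193a (79711969 to 79712034) after 14365 bases. Mir455 (ENSMUSG00000070102.1) is on chromosome 4 from 63256851 to 63256932, inside an intron of Col27a1, a fibrillar collagen gene of cartilage, on the same strand. No read was counted on the strand opposite any of the 4 genes or Mir193a in either library.

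Levels are given as CPM: reads on the strand of the gene, scaled to 1000000 reads over all gene rows. They are not divided by length, since the arms printed above are 21 to 23 bases long. Replicate 1 held 1573213 such reads and replicate 2 held 5429127, so the second library measures rare genes more precisely. A gene with 0 reads could have up to 3 counts, which is 1.91 CPM in replicate 1 and 0.553 CPM in replicate 2. Intervals are exact (Clopper-Pearson) 95% binomial intervals and cover counting error only. A gene is called detected at 2 CPM or more in both libraries, which 324 of 2202 genes were. Of the 4 genes described here, 2 were, Mir455 and Mir193b. Of 11 striated muscle genes 10 were detected, with a median of 27.4 CPM over the list. Reads that align to several places enter no gene count, so multi-copy genes such as Mir133a-1 and Mir133a-2 can be undercounted. The median of this list therefore gives no level for the mature muscle microRNAs. The highest were Mir206 at 34864 and 72482 CPM, Mir486 at 651 and 717 CPM and Mir208b at 219 and 994 CPM in replicates 1 and 2. Detected too were 5 of 5 immune, 2 of 2 erythroid and 5 of 6 smooth muscle and fibroblast genes. Of epithelial and neural genes 6 of 10 and 2 of 9 were, so detection alone does not single out muscle.

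Mir455 was the most abundant of the 4. Replicate 1 had 699 reads, or 444 CPM (interval 412 to 479), and replicate 2 had 1808 reads, or 333 CPM (318 to 349). Its mean was 389 CPM ± 78.7 (SD, n = 2), which ranked 112 among all genes. In each library it lay above 69.1% and 64.8% of the detected genes. The libraries did not overlap in their counting intervals, and replicate 1 was the higher one. In both libraries Mir455 was above the median of detected genes, whose mean level was 130 CPM.

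Mir193b was found at a middle level. Replicate 1 had 222 reads, or 141 CPM (123 to 161), and replicate 2 had 901 reads, or 166 CPM (155 to 177). The mean was 154 CPM ± 17.6 (SD, n = 2), rank 155, close to that median. Here replicate 2 was slightly higher, and the counting intervals overlap. Mir193a had 143 and 383 reads, or 90.9 and 70.5 CPM, a mean of 80.7 ± 14.4. Mir193b was therefore the more abundant of the paralogs with the shared 3p seed in both libraries. The order Mir455, Mir193b, Mir193a held in each library, and no neighbours in it overlapped in their counting intervals within a library.

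Mir365-1 and Mir365-2 were at the edge of detection. Mir365-1 had 2 reads in replicate 1, or 1.27 CPM (0.154 to 4.59), and 12 reads in replicate 2, or 2.21 CPM (1.14 to 3.86). Mir365-2 had 1 read in replicate 1, or 0.636 CPM (0.0161 to 3.54), and 14 reads in replicate 2, or 2.58 CPM (1.41 to 4.33). Their means, 1.74 ± 0.664 and 1.61 ± 1.37 CPM (SD, n = 2), cannot be ordered: the ratio of Mir365-2 to Mir365-1 was 0.5 in replicate 1 (0.00847 to 9.60) and 1.17 in replicate 2 (0.501 to 2.76). Both genes were below 2 CPM in replicate 1 and above it in replicate 2, so with replicate 2 alone 4 of the 4 genes would count as detected. Counts belong to whole hairpins, so it is not known from which arm these reads came.

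**Figure D1:**
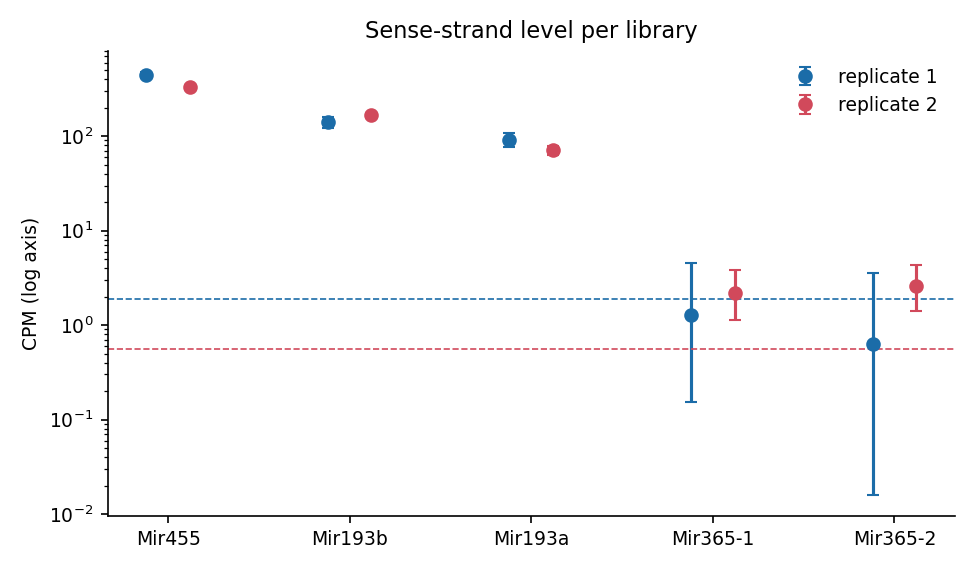
Level of each gene in each library in CPM on a log axis, with points for the libraries, bars for exact 95% counting intervals, and dashed lines in the same colours for the limit set by 3 counts. Mir455, Mir193b and Mir193a sit between 70.5 and 444 CPM, and the Mir365 genes between 0.636 and 2.58 CPM.

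The 4 genes held 0.0587% of the counts of replicate 1 (0.0550 to 0.0626) and 0.0504% of replicate 2 (0.0485 to 0.0523). Mir455 gave 75.6% and 66.1% of that sum, Mir193b 24.0% and 32.9%, and both Mir365 genes together 0.325% and 0.951%. In whole tissue, fewer cells that make a microRNA and less of it per cell cannot be told apart.

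The levels of Mir365-1 and Mir365-2 are uncertain, as their counts are low and a read from the sequence they share may enter neither count. The hairpins are shown, from RefSeq on the forward strand of GRCm38.p6, with the longest identical stretch in capitals.
Mir365-1: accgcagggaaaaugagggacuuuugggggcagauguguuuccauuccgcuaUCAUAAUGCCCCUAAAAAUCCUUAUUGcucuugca
Mir365-2: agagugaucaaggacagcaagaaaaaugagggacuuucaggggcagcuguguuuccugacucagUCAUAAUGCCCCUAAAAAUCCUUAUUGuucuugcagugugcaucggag
The stretch is 27 bases long and holds the whole of miR-365-3p. It begins at base 53 of Mir365-1 and at base 65 of Mir365-2. Of the windows of 22 bases in each hairpin, 6 of 66 in Mir365-1 and 6 of 91 in Mir365-2 occur at another annotated microRNA locus, and 0 of 58 in Mir193b, 0 of 61 in Mir455 and 0 of 45 in Mir193a do. Each arm of Mir193b, Mir193a and Mir455 matched 1 locus, also when 1 mismatch was allowed. The count tables put reads that align to several places in a row of their own, 5050915 reads in replicate 1 and 16790938 in replicate 2, and give them to no gene. How many of those were miR-365-3p was not tested, and the reads counted on Mir365-1 and Mir365-2 therefore give no level for that microRNA.

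**Figure D2:**
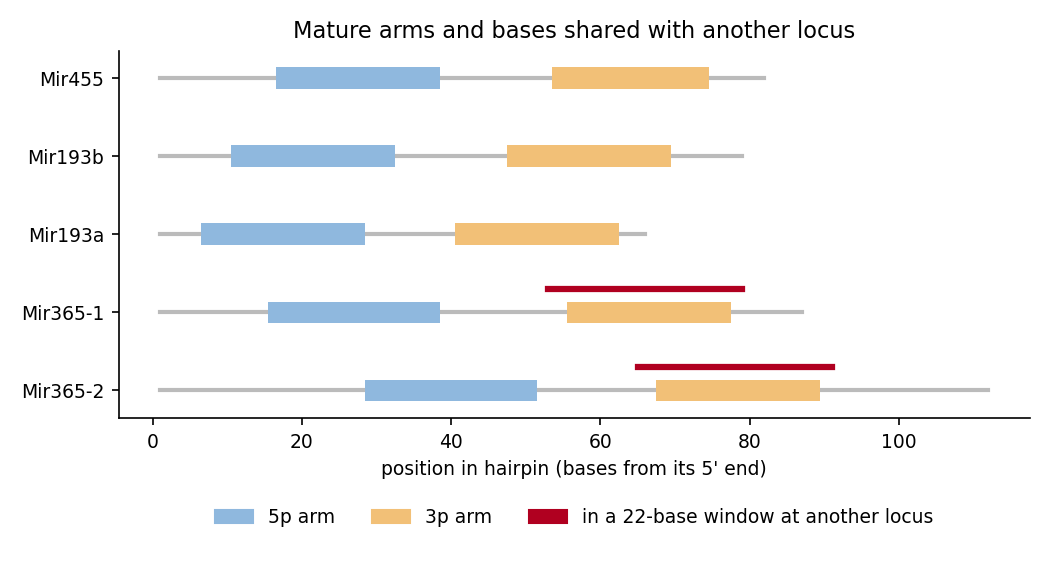
Hairpins drawn to scale in bases from the 5′ end, with the 5p arm in blue, the 3p arm in orange, and in red the bases covered by windows of 22 bases that occur at another annotated locus. The red stretch of 27 bases covers the 3p arm of Mir365-1 and of Mir365-2, and the other hairpins have none.

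Beside its cluster partner each Mir365 gene was far lower. In replicate 1 there were 222 reads of Mir193b for 2 of Mir365-1, a ratio of 111 (exact 95% interval 30.4 to 922), and in replicate 2 there were 901 for 12, a ratio of 75.1 (42.8 to 146). These intervals overlap. For Mir193a and Mir365-2 the ratio was 143 in replicate 1 (25.3 to 5687), on 1 read of Mir365-2, and 27.4 in replicate 2 (16.1 to 50.5). Leaving out replicate 1 thus takes the mean log2 ratio of Mir193a to Mir365-2 from 5.97 to 4.77, and leaving out replicate 2 takes it to 7.16. A ratio of reads in 1 library needs no scaling, so these values do not depend on it.

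The gaps of the Mir365 genes were set beside those of other neighbouring microRNA genes, as a description. RefSeq arms could be placed in 1022 of the 2202 genes, among them 290 of the 324 detected ones (89.5%). At least 2 arms were placed in 661 genes. All arms therefore means all placed arms here, and a repeated arm that was not placed is missed. An arm at several annotated loci beside an arm at 1 locus was found in 61 genes, the Mir365 genes included. Of these 61, 38 had a higher mean level than Mir365-1 and 22 a lower one, with 12 at 0. A pair was a gene with at least 1 count and the nearest detected gene, with all arms at 1 locus, within 15000 bases on the same strand. Since the neighbour had to be detected and the gene did not, part of the direction follows from this choice. For the 21 genes with a repeated arm that had such a neighbour, 6 of them not detected, the neighbour was higher in 18, by a median log2 ratio of 4.67. The log2 ratio was 6.46 for Mir365-1 and 5.65 for Mir365-2, reached or passed by 8 and 10 of the 21 pairs, each gene counted in its own number. For 116 genes with all arms at 1 locus, 17 of them not detected, the neighbour was higher in 65 and the median was 0.45, and 7 and 10 of the 116 reached the values of the Mir365 genes. With both genes detected, which leaves the Mir365 genes out, the medians were 3.17 over 15 pairs and -0.15 over 99. Genes with all arms at 1 locus can also serve as neighbours, so many of their pairs count in both directions. Mir221 and Mir222, for example, gave -2.66 and 2.66, and such pairs draw the median toward no difference. Genes with a repeated arm count in 1 direction only, so the medians of these groups cannot be compared directly. Pairs share neighbours and are not independent, they carry no test, and the part of the repeated arm in the low counts of Mir365-1 and Mir365-2 was not tested.

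**Figure D3:**
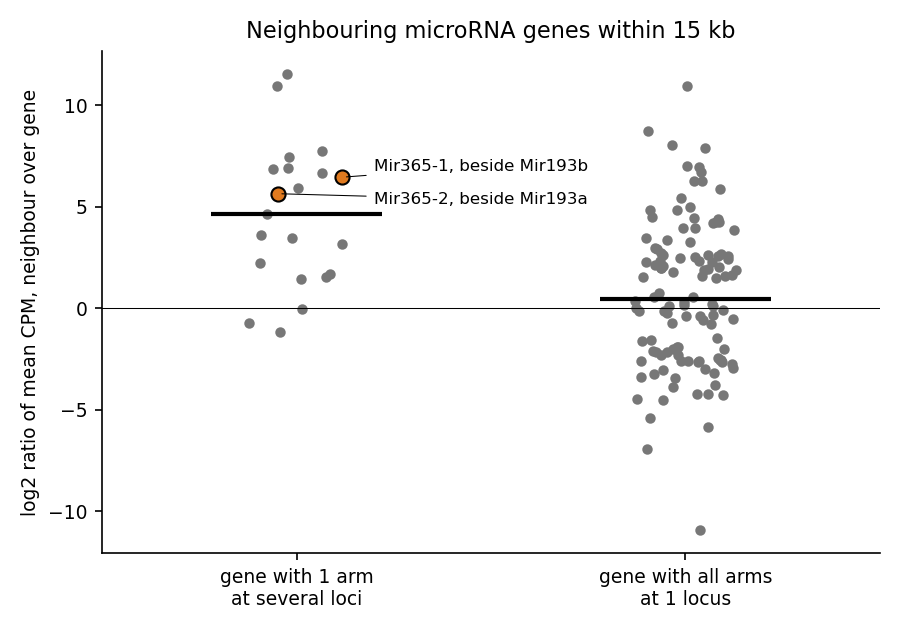
Log2 ratio of mean CPM of a detected neighbour within 15000 bases on the same strand over the gene itself, for genes with 1 arm at several loci (left, 21 pairs) and genes with all arms at 1 locus (right, 116 pairs), with bars for medians and points spread sideways for clarity. The Mir365 genes, in orange at 6.46 and 5.65, lie above the left median of 4.67, and the right median is 0.45. Many pairs on the right count in both directions, so these medians cannot be compared directly.

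Detected genes with all placed arms at 1 locus had a median of 176 CPM (249 genes). Those with 1 such arm had 47.5 CPM (35 genes) and those with none 54.4 CPM (6 genes). With 1 mismatch allowed the medians were 130, 215 and 66.0 CPM over 218, 56 and 16 genes, so this order over all genes depends on how a match is defined. The class of the Mir365 genes, Mir193a, Mir193b and Mir455 was the same under both definitions.

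Between the libraries, Mir455 went one way and Mir193b the other. Mir455 was 1.33 times higher in replicate 1 (exact 95% interval 1.22 to 1.46), a log2 ratio of replicate 2 over replicate 1 of -0.42, and passed the two-sided exact binomial test with Benjamini-Hochberg adjustment (adjusted p = 1.40e-09). Of 364 tested genes, 45.3% passed that test, 30.2% with replicate 1 the higher library and 15.1% with replicate 2, so 1 call among 4 genes is no more than usual in these tables. Mir193b was 1.18 times higher in replicate 2 (1.01 to 1.37; log2 ratio 0.23), with an adjusted p of 0.0675 in the same exact test. Scaling decided that call: with TMM scaling its log2 ratio was 0.31 (adjusted p = 0.00923, exact binomial test) and with DESeq2 size factors 0.36 (adjusted p = 0.00181, exact binomial test). Under these scalings the log2 ratio of Mir455 was -0.34 and -0.28, still past the test. The split of all calls also turned with scaling, from 110 genes higher in the first and 55 in the second library to 80 and 95 with DESeq2 size factors.

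The spread between libraries beyond counting error, estimated with edgeR over the 324 detected genes, was a coefficient of variation of 24.5%, or 1 SD of 0.50 in the log2 ratio per gene. Mir455 and Mir193b both lay within it, as did Mir193a at -0.37, while 124 of 364 tested genes lay beyond it. This SD rests on 2 libraries. The tests compare these libraries and no conditions.

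The Mir365 genes were too thinly counted for such a comparison. Mir365-1 was 1.74 times higher in replicate 2, with a log2 interval of -1.37 to 4.00, and Mir365-2 4.06 times, with a log2 interval of -0.70 to 7.42. Neither passed the exact binomial test (adjusted p = 0.871 and 0.348). Both intervals include no difference and are wide, so whether these genes differed between the libraries is not known.

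**Figure D4:**
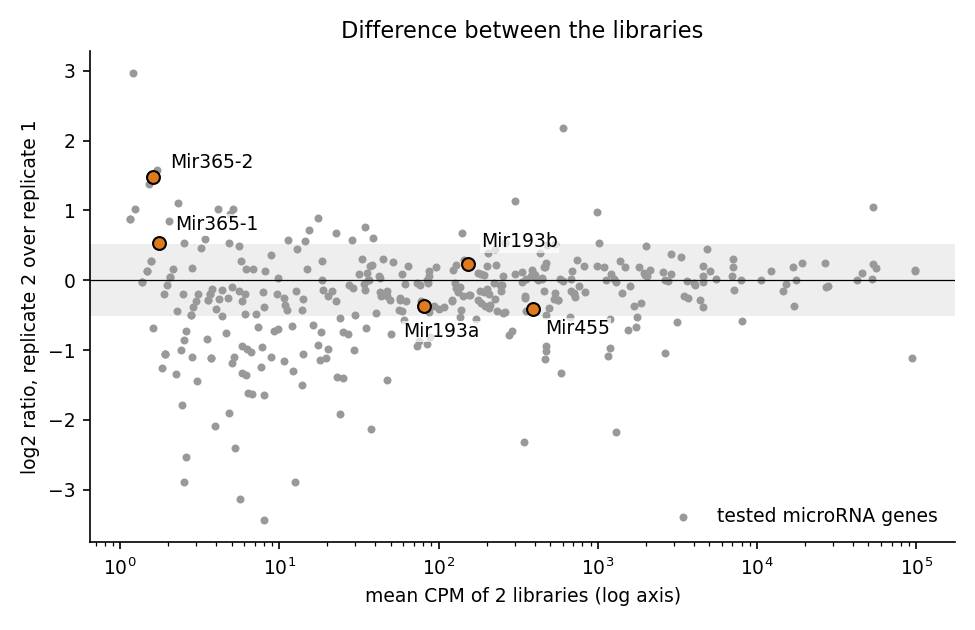
Log2 ratio of replicate 2 over replicate 1 against mean CPM on a log axis for 364 tested genes (grey) and the 4 genes with Mir193a (orange), with a shaded band at 1 SD (0.50) on either side of 0. Mir455, Mir193b and Mir193a lie in the band, and the Mir365 genes at the thin left end lie above it.

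Because the genes moved apart, their proportions differed between the libraries. There were 3.15 reads of Mir455 per read of Mir193b in replicate 1 (2.70 to 3.68) and 2.01 in replicate 2 (1.85 to 2.18). There were 1.55 reads of Mir193b per read of Mir193a in replicate 1 (1.25 to 1.93) and 2.35 in replicate 2 (2.09 to 2.66). In both cases the counting intervals do not overlap. The log2 differences between libraries, -0.65 and 0.60, were below the SD of 0.71 that the coefficient of variation gives for a ratio of 2 independent genes.

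Markers of other cells also differed between these libraries, as did 45.3% of all tested genes. Here higher means called by the exact binomial test with library totals. Over all tested genes that test called 30.2% higher in replicate 1 and 15.1% in replicate 2. Such calls depend on the scaling, and a count from a short list says little. Mir140, the cartilage microRNA, had 2077 CPM in replicate 1 and 1442 in replicate 2, a log2 ratio of -0.53, beside -0.42 for Mir455. Of 5 tested genes of smooth muscle and fibroblasts replicate 1 was higher in 3 and replicate 2 in 1, and the 6 listed held 13.3% and 6.34% of the counts of replicates 1 and 2. Of 8 tested epithelial genes 7 were higher in replicate 1 (0.0518% and 0.0255% of counts for 10 genes), as were 2 of 2 erythroid genes (0.270% and 0.0587%). Of 5 immune genes 3 were higher in the first library and 1 in the second (0.310% and 0.257%), and of 3 tested neural genes 1 was higher in replicate 1 (0.159% and 0.0758% for 9 genes, with Mir124a-1, Mir124a-2, Mir124a-3 and Mir9-2 at 0). The endothelial gene Mir126a was higher in replicate 2 (9.33% and 10.3%), and of 10 tested muscle genes 5 were higher in the second library and 3 in the first (3.64% and 7.50% for 11 genes). The part of any of these cells in the levels of Mir455 and Mir193b was not tested.

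Other microRNA genes with a described role in fat were mostly detected, several far above the 4 genes. Over all counted genes 324 of 2202 were detected. The muscle (10 of 11) and immune (5 of 5) lists were mostly detected too, and the neural list (2 of 9) was not. Detection is therefore not particular to the fat lists. Of 14 further genes described as promoting brown or beige fat, 13 were detected, with a median of 61.0 CPM, and 2 were above Mir455. They were Mir378a, in the gene of the coactivator PGC-1β, at 98707 ± 6479 CPM (SD, n = 2), and Mir196a-2 at 1128 ± 4.46 CPM. The microRNA of Mir196a-2 is a described repressor of Hoxc8. An arm of this gene lies at several loci, so reads from it may be missing and its count gives no level for that microRNA. Mir328 had nearly the mean level of Mir455, at 386 ± 28.2 CPM, and both overlap within their SDs. Their order differed between the libraries: Mir328 was lower in replicate 1 (366 against 444 CPM) and higher in replicate 2 (406 against 333 CPM). Of these 14 genes, 8 have an arm at several loci, and 3 (Mir30b, Mir378a and Mir328) had no arm to match. By the exact binomial test with library totals 3 of the 14 were higher in the first library (Mir30b, Mir203 and Mir182) and 1 in the second (Mir378a), against 30.2% and 15.1% of all tested genes. Mir203 and Mir182 are also on the epithelial list, of which 7 of 8 tested genes were higher in the first library. The median log2 ratio was 0.01, against -0.15 over all tested genes.

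Of 12 genes described as holding brown fat back, 12 were detected, with a median of 294 CPM, and 9 lay above Mir193b. The lists differ in repeated arms, and so their medians cannot be compared directly: 2 of these 12 (Mir125b-1 and Mir125b-2) have an arm at several loci, and 2 (Mir133a-1 and Mir133a-2) had no arm to match. Mir27b, which targets Prdm16 and Pparg, had 6939 ± 227 CPM, Mir93 1735 ± 564 CPM and Mir27a 1297 ± 18.7 CPM. Mir133b, of a family that represses Prdm16 in muscle precursors, had 27.4 ± 0.761 CPM, below Mir193b. An arm of Mir133b matched several loci when 1 mismatch was allowed, so this level is uncertain too. Mir133a-1 and Mir133a-2 of the same family, at 12.1 and 22.8 CPM and at 7.63 and 2.03 CPM in replicates 1 and 2, are multi-copy genes with uncertain levels. Here 5 of 12 were higher in the first library and 2 in the second (30.2% and 15.1% over all tested genes), with a median log2 ratio of -0.12.

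Of 8 genes known from white fat and fat cell formation, 7 were detected, with a median of 467 CPM, and 5 lay above Mir455. Of the 8, 2 (Mir103-1 and Mir103-2) have an arm at several loci, and Mir143 had no arm to match. Mir143, which is also the leading smooth muscle and fibroblast gene, had 127590 and 59272 CPM in replicates 1 and 2, Mir335 11614 and 12731 CPM, and Mir21a 9619 and 6431 CPM. Of the 7 tested with library totals, 6 were higher in the first library and 1 in the second, against 30.2% and 15.1% of all tested genes, with a median log2 ratio of -0.87. Such counts depend on the scaling, as the split of all calls above does. Medians of lists are descriptions and carry no test.

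**Figure D5:**
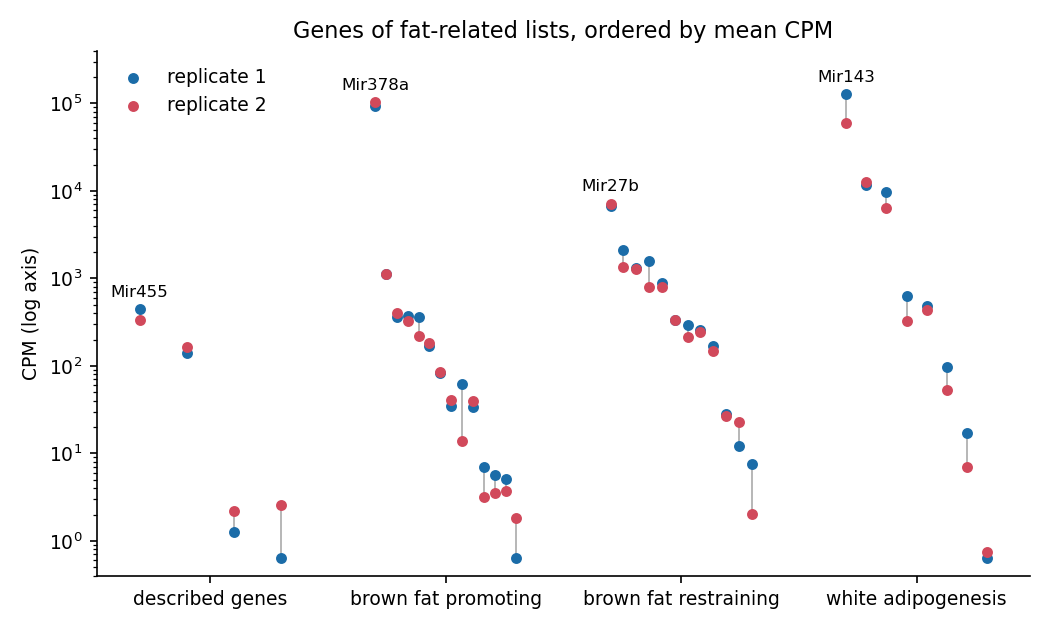
CPM on a log axis of the 4 described genes and of the genes of 3 fat-related lists, each ordered by mean CPM, with a point for each library joined by a line and the highest gene of each list named. Mir455 at 444 and 333 CPM and Mir193b at 141 and 166 CPM fall within the range of each list, whose highest genes reach 103288, 7100 and 127590 CPM.

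The genes most like each of the 4 in level over both libraries were found by the distance of log2(CPM + 1) among detected genes. Over 2 libraries this says only that the levels were close. For Mir455 they were Mir223 (406 and 298 CPM, distance 0.21), Mir1a-2 (378 and 318 CPM, 0.24) and Mir30b (376 and 323 CPM, 0.25). For Mir193b they were Mirlet7f-1 (130 and 159 CPM, distance 0.14), Mir30c-2 (170 and 183 CPM, 0.30) and Mir134 (165 and 143 CPM, 0.31). Mirlet7f-1 and Mir30c-2 have an arm at several loci, so their counts may leave out reads from that arm. For Mir365-1 and Mir365-2 the nearest detected gene was Mir669e (2.54 and 2.39 CPM), at distances of 0.65 and 1.12, followed for both by Mir7213 and Mir1963 in differing order.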

How the data were processed

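Small RNA libraries from gastrocnemius total RNA (1 group, replicates 1 and 2) were used. The authors deposited raw counts per microRNA gene in 3 columns per library (either strand, strand of the gene, opposite strand, as read from the values) with 4 tally rows, for mm10 and GENCODE M21 per the file headers of the readmes; which aligner, counter or filters served is not given in the sources used here. Tally rows stayed out of totals, and 69.1% ± 0.794 (SD, n = 2) of reads fell in the row for several places.

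CPM, counts scaled to 1000000 per library, came from the gene-strand column. A two-sided exact binomial test, with odds from the library totals and Benjamini-Hochberg adjustment at 0.05, compared genes with 10 or more reads in sum. It was tried on simulated data with counting error only, which leave out the spread between libraries and so do not give its error rate here. Log2 ratios of single genes used an offset of 0.5 counts. Scaling and spread used edgeR 4.0.16 and DESeq2 1.42.0 on detected genes (R 4.3.3), the rest Python 3.11.15, scipy 1.17.1, pandas 2.3.3. No genome sequence was used here, so mature arms (RefSeq, GRCm38.p6, assigned by position) were searched on both strands of the GENCODE hairpins, overlapping hairpins as 1 locus, in place of the genome search that had been planned. Named were the 4 genes, Mir193a, the 3 highest genes of each list and the 3 nearest genes; Mir133b, Mir133a-1 and Mir133a-2 were added after their values were seen. Genes, lists and the neighbour distance were chosen with earlier results of these data known.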

Additional observations from a re-analysis of the deposited data

Results flagged for a closer look

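Reads aligned to several places, which enter no gene count, were 68.6% of the reads of replicate 1 and 69.7% of those of replicate 2. They were picked out because they are a large signal outside the measured counts and because miR-365-3p has its sequence at 2 loci; how many of them belong to it was not tested.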

How the results depend on the processing

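No paired analysis was possible because both libraries belong to 1 group. Mean levels moved beyond the SD with the denominator: with the either-strand column Mir193b had 201 CPM and Mir455 507 CPM, and per 1000000 aligned reads Mir193b had 36.3, Mir365-1 0.413 and Mir455 91.5. Leaving out a replicate gave 141 to 166 CPM for Mir193b, 333 to 444 for Mir455, 1.27 to 2.21 for Mir365-1 and 0.636 to 2.58 for Mir365-2, and 2 to 4 of the genes detected. The log2 ratio of Mir193b passed the exact binomial test at 0.31 with TMM scaling, 0.36 with DESeq2 size factors and 0.26 with the either-strand column, against 0.23 and not past it with library totals. DESeq2 size factors moved all log2 ratios by 0.13 and gave 95 genes higher in replicate 2. Mir193a no longer passed with TMM (-0.29) or DESeq2 scaling (-0.24). Genes with a placed arm at several loci numbered 112, or 174 with 1 mismatch allowed. Depth limits the Mir365 genes, with 3 reads between them in replicate 1 and 26 in replicate 2.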
